A study of Mus musculus with 18 samples.

Results

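CTCF regions found in SKO only are intervals called as peaks of the chromatin protein CTCF in the authors' list for sextuple-knockout mouse embryonic stem cells. No interval of the triple-knockout or wild-type list overlaps them. They were chosen by the authors' peak calls alone. Rows of each list with the same interval were joined, intervals of the 3 lists that overlapped by at least 1 bp were merged, and merged regions with an SKO interval and no other were taken. The rule found 2610 of 78072 merged regions (3.34%, 95% Wilson interval 3.22% to 3.47%), which are 4.4% of the 59372 SKO regions and cover 687 kb. Membership, fold enrichment, −log10 q and fragment depth come from the peak calls that chose the regions, so these values describe the regions and support nothing else.

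The study measured CTCF by chromatin immunoprecipitation and sequencing (ChIP-seq) in 3 genotypes, each with 3 ChIP and 3 input samples, 18 samples in all. SKO cells lack the methyltransferase genes Dnmt1, Dnmt3a and Dnmt3b together with Tet1, Tet2 and Tet3, TKO cells lack the 3 Tet genes alone, and WT cells carry none of these deletions. Every genotype is a line of its own, no line without the Dnmt genes alone is among the groups, and the labels do not say whether replicates were separate cultures. All cells grew on irradiated embryonic fibroblast feeders, so feeder chromatin may be present, and CTCF peaks alone do not check the labelled cell type or genotype.

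CTCF is a zinc-finger protein that marks domain boundaries and, by halting cohesin, anchors chromatin loops. Methylation of CpG dinucleotides within its motif is known to weaken binding at part of its sites. DNMT enzymes place this mark, TET enzymes oxidise it on the way to its removal, and promoters rich in CpG are largely free of it in most cells.

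The sequences of promoter windows that hold the summit of an SKO-only region are shown first, since nearness to gene starts is the main feature of these regions that the rule did not use. Each window runs from 250 bases before to 50 after a RefSeq transcription start in GRCm38.p6 (the assembly of mm10), 5′ to 3′ on the gene's strand. The first 2 belong to the regions of highest fold near a gene end whose window holds a loose form of the CTCF motif on either strand, and capitals mark the match. The loose form is CC, any 3 bases, AG, any 2 bases and GGC. Rchy1 encodes a ubiquitin ligase (chr5:91963019-91963318, minus strand) and Cyp26a1 encodes an enzyme that degrades retinoic acid (chr19:37697558-37697857, plus strand).
Rchy1: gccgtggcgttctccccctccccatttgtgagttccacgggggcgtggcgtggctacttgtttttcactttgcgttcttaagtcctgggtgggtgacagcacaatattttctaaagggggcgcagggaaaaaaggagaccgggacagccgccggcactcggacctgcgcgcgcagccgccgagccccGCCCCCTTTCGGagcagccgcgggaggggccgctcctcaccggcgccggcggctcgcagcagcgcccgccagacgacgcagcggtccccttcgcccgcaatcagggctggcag
Cyp26a1: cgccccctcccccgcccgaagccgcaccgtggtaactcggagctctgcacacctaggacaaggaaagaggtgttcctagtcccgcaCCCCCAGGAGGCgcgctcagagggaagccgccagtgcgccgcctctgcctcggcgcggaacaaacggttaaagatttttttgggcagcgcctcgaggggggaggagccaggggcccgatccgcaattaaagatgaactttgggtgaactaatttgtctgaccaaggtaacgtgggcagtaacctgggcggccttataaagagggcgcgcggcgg
In Rchy1 the match lay on the opposite strand, 156 bp from the summit and outside the called SKO-only interval (chr5:91963173-91963405). It held a CG at motif bases 2 to 3 and at bases 12 to 13. In Cyp26a1 the match lay on the gene's strand, 87 bp from the summit and inside the called interval, and held a CG at bases 12 to 13. The next 2 windows hold no match, and capitals mark every CG. Smpdl3b encodes a lipid phosphodiesterase (chr4:132757122-132757421, minus strand) and Rbm39 a splicing factor (chr2:156180189-156180488, minus strand).
Smpdl3b: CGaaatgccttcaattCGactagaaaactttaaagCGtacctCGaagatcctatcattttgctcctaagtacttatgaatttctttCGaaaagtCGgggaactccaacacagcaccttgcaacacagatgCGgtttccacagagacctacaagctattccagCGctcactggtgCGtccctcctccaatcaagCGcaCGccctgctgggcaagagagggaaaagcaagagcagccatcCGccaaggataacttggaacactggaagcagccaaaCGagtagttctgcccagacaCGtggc
Rbm39: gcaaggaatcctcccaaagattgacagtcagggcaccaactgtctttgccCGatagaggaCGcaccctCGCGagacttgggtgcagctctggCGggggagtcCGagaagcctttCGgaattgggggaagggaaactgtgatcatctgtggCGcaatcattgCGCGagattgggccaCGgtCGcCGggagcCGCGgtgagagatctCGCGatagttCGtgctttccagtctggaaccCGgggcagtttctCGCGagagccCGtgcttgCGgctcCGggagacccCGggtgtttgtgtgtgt
The Smpdl3b window has 14 CpG and the SKO summit lay 2 bp from the start. The Rbm39 window has 25 CpG and lies under the SKO-only region of greatest depth, with 63 fragments over the summit. Its local background was 8.65 fragments, against a median of 1.66 for SKO-only regions, and its fold was 6.63. The last window, of the gene model Gm15524 at the boundary of Pax9 (chr12:56691631-56691930, minus strand), was chosen after its values were seen, because Pax9 held 3 SKO-only regions and no TKO or WT region. Capitals mark its single match, 35 bp from the summit.
Gm15524: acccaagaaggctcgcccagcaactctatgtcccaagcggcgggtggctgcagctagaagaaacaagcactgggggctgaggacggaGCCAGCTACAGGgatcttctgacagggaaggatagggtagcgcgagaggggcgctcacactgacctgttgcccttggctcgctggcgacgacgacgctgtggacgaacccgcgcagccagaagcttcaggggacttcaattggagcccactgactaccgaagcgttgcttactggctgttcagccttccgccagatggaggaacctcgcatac
No match in a window says only that these letters are not there.

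SKO-only regions were shallow peaks. Their median fold enrichment, which is the authors' own ChIP-over-background ratio, was 4.50 (quartiles 3.67 and 5.49, range 2.15 to 14.4), against 11.7 at SKO regions shared by all 3 lists. Their median −log10 q was 4.72, against 32.4 at the shared regions. They were 240 bp wide at the median, against 389 bp, and 0.57% had several summits, against 2.94%.

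The number of ChIP fragments over a summit was worked out from the deposited fold and −log10 p. The median SKO-only summit carried 12 fragments from the 3 pooled replicates (quartiles 10 and 15, range 7 to 63), against 15 where SKO shared the region with TKO, 14 where it shared it with WT and 40 where all 3 lists did. Regions found in TKO only had a median of 15 fragments in their own list, as did regions found in WT only. The lowest background, the genome-wide one, was 1.37 fragments in SKO, 1.82 in TKO and 1.76 in WT. At that background the smallest peak had 7 fragments in SKO, 8 in TKO and 7 in WT. The part of this difference in depth in list membership was not tested.

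**Figure D1:**
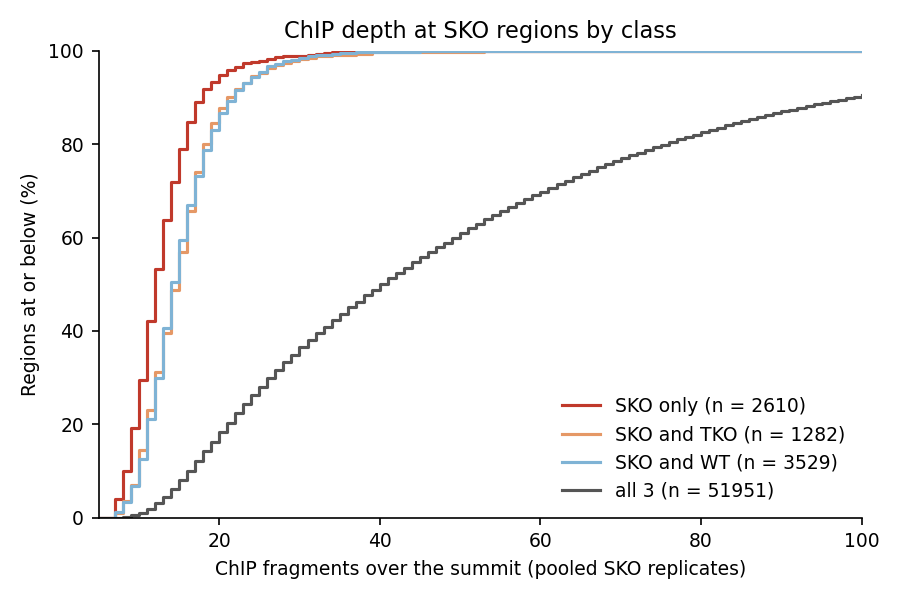
Cumulative share of SKO-list regions (vertical axis, %) by the number of ChIP fragments over the summit (horizontal axis, shown up to 100), for SKO-only regions and for SKO regions shared with TKO, with WT or with both. The SKO-only curve lies furthest left with a median of 12 fragments, and the curve of regions in all 3 lists has a median of 40.

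The SKO-only region closest to an interval of another list lay in Phkb, a subunit of phosphorylase kinase (chr8:85948543-85948777, fold 3.98), 24 bp from a WT interval of fold 3.86. The next lay 195 bp from Jtb (chr3:90231305-90231829, fold 3.45), 27 bp from a TKO interval of fold 3.59. Just outside the rule, an SKO interval in Trim45 (chr3:100932697-100932945, fold 2.57) overlapped a WT interval by 3 bp, and one on chromosome 13 (chr13:85844911-85845477, fold 3.00) overlapped one by 11 bp. In all, 12 SKO intervals were kept out by an overlap under 50 bp. Of the 2610 members, 7 lay under 100 bp from a TKO or WT interval, 18 lay 100 to 199 bp away, 191 lay 200 to 499 bp away and 201 lay 500 to 999 bp away. The distance was 1 to 10 kb for 1208 and at least 10 kb for 985. Under 1 kb lay 417 in all (16.0%). Where a region was instead kept if no TKO or WT summit lay within 100 bp of its own, the same 2610 and 394 others qualified, 3004 in all.

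Of the 12 SKO-only regions of highest fold, 5 lay inside a protein-coding gene and 5 had none within 100 kb. The highest (chr10:102867011-102867286) had a fold of 14.4 and 33 fragments, and no protein-coding gene within 100 kb. The second (chr11:12756405-12756778) had a fold of 12.6 and 33 fragments, and the third (chr16:55460507-55460808) a fold of 11.6 and 30 fragments, likewise without a protein-coding gene within 100 kb. Together with a region on chromosome 1 (chr1:148993646-148993906, fold 10.6) and one on the X (chrX:122165239-122165502, fold 10.1), these are the 5 without a gene to name.

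Among those with a gene, the region in Bid, which encodes a pro-apoptotic BH3 protein (chr6:120915209-120915538), had a fold of 11.3 and 28 fragments. It lay 5.38 kb from the nearest TKO interval, of fold 5.35, and 5.396 kb from the nearest WT interval, of fold 6.90. A region 5.82 kb from Dnah6, an axonemal dynein heavy chain (chr6:73227944-73228154), had a fold of 10.98 and 25 fragments. Introns and exons could not be told apart, so the regions in Pde4d, a cyclic AMP phosphodiesterase (chr13:109903218-109903444, fold 9.71), in Tmed8 (chr12:87182500-87182834, fold 9.63) and in Ctnnd2, a delta-catenin of neurons (chr15:30424366-30424587, fold 9.29), are placed inside these genes only. The region in S1pr4, a sphingosine-1-phosphate receptor (chr10:81498854-81499342), had a fold of 9.34, 25 fragments and a summit 1050 bp from the gene's start. The last lay 52.6 kb from Agmo, an alkylglycerol monooxygenase (chr12:37634373-37634647, fold 9.29).

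SKO-only regions lay near gene boundaries more often than the 5 classes set beside them here. Their summit was within 1 kb of an end of a protein-coding gene, either boundary, at 477 of 2610 regions (18.3%, 16.8% to 19.8%). The share was 13.8% (12.0% to 15.8%) of SKO regions shared with TKO, 7.57% (6.74% to 8.49%) of those shared with WT and 8.97% (8.72% to 9.21%) of those in all 3 lists. It was 13.04% (11.9% to 14.2%) of TKO-only regions and 7.30% (6.80% to 7.83%) of WT-only regions. The intervals cover counting error only, since replicates were pooled, and no p-value is given.

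The classes fell in the same order at transcription starts. A RefSeq start lay within 1 kb of the summit at 426 SKO-only regions (16.3%, 15.0% to 17.8%), against 11.9% of SKO and TKO regions, 6.46% of SKO and WT regions, 6.90% of regions in all 3 lists, 10.7% of TKO-only regions and 5.98% of WT-only regions. At 3′ ends of protein-coding genes with no start within 1 kb the classes lay close together, at 1.99% (1.52% to 2.60%) of SKO-only regions, against 2.29% (2.17% to 2.43%) of regions in all 3 lists. Counted over all summits, those near a boundary included, 51.9% of SKO-only summits lay inside a protein-coding gene, against 48.7% in all 3 lists. The share was 51.6% for SKO and TKO, 51.3% for SKO and WT, 52.9% for TKO-only and 49.5% for WT-only regions. Over 100 kb from any such gene's end lay 15.9%, against 13.1% in all 3 lists. The remaining classes ran from 13.3% for SKO and TKO to 18.8% for WT-only regions.

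**Figure D2:**
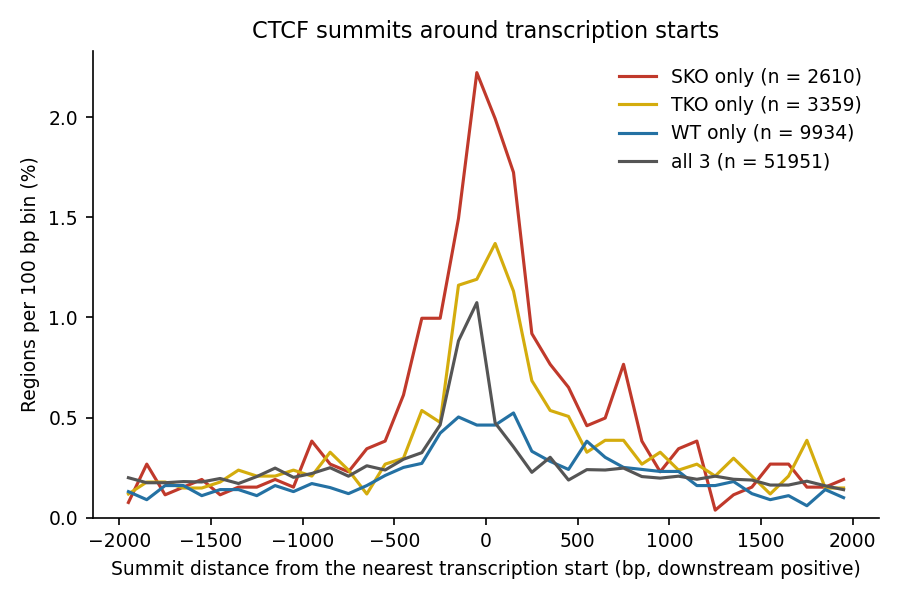
Share of regions per 100 bp bin (vertical axis, %) by the distance of the summit from the nearest RefSeq transcription start (horizontal axis, bp, downstream positive) for SKO-only, TKO-only and WT-only regions and regions in all 3 lists. The SKO-only curve peaks at 2.22% in the bin just before the start.

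The SKO-only summits piled up on both sides of the start. Within 200 bp of a start lay 194 of them (7.43%, 6.49% to 8.50%), against 4.85% (4.18% to 5.63%) of TKO-only regions, 1.95% of WT-only regions and 2.79% of regions in all 3 lists. The 100 bp before the start held 2.22% of SKO-only summits and the 100 bp after it 1.99%. For regions in all 3 lists these shares were 1.07% before and 0.47% after, so their summits fell mostly upstream. TKO-only regions had 1.19% before and 1.37% after, and WT-only regions 0.46% on each side. Lying on both sides of the start was thus not particular to SKO-only summits.

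Weak SKO regions in general lay nearer to gene ends than those of middle strength, so the classes were also set side by side at like strength. The SKO list was divided into 10 equal bins by −log10 q. SKO-only regions made up 28.3% of the weakest bin (1682 of 5938), 10.6% of the second (632), 4.18% of the third (248) and 0.66% of the fourth (39). The fifth held 6, the sixth 3 and the seventh 0 of 5937, where 3 counts would be 0.0505%. In the weakest bin 21.3% (19.4% to 23.3%) of SKO-only regions lay within 1 kb of a gene end, against 12.1% (11.1% to 13.1%) of the other SKO regions. The shares were 12.97% (10.6% to 15.8%) against 8.24% in the second bin and 12.9% (9.29% to 17.6%) against 7.38% in the third. In the fourth bin 10.3% of 39 regions lay there, with an interval of 4.06% to 23.6% that spans the 7.78% of the others.

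**Figure D3:**
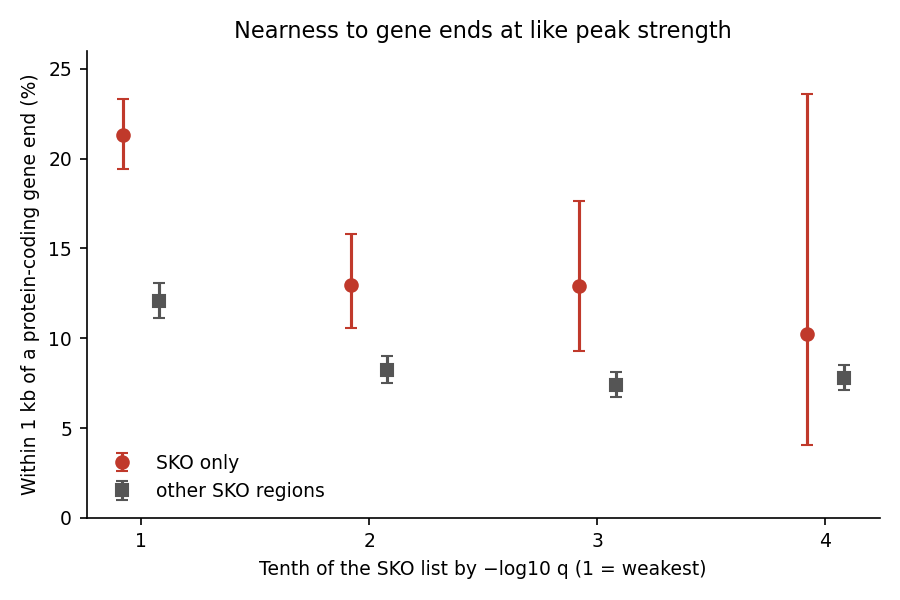
Share of regions with a protein-coding gene end within 1 kb (vertical axis, %) in the 4 weakest of 10 equal bins of the SKO list by −log10 q (horizontal axis), for SKO-only and other SKO regions, with 95% Wilson intervals that cover counting error only. The SKO-only point lies above the other in each, at 21.3% against 12.1% in the weakest, and in the fourth its interval spans the other.

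Weighted to the strengths of SKO-only regions, the other SKO regions had 10.6% near a gene end, 7.65 percentage points under the 18.3% of SKO-only regions. For starts the pair was 16.3% against 8.68%, and for overlap with a promoter window 9.27% against 4.33%. The same calculation gave 13.04% against 10.2% for TKO-only regions within the TKO list, and 7.30% against 11.04% for WT-only regions within the WT list, which thus went the other way.

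Local background moved with this result. SKO-only regions within 1 kb of a start had a median background of 2.33 fragments, against 1.66 for those further away, a pileup of 13 fragments against 12, and a fold of 3.80 against 4.65. With 10 bins of local background held alike instead of −log10 q, the difference in gene-end share was 11.2 percentage points, and without the weakest bin it was 4.84. Both were chosen after seeing the data.

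The 10 gene-end regions of highest fold show the range of positions. Those near Rgs1, a regulator of G-protein signalling (chr1:144243579-144243880), at the boundary of Gm3488 (chr14:5501269-5501509), near Hyou1, a chaperone of the endoplasmic reticulum (chr9:44379069-44379773), and near Ccdc160 (chrX:52799548-52799822) each had a fold of 7.60 and 17 fragments over the lowest background. Gm3488 belongs to a family of similar gene models, and how reads of copies were placed is not given in the sources used here. The region at Hmcn2, a hemicentin of the extracellular matrix (chr2:31460313-31460589), had a fold of 7.48, and that at Cib2, a calcium-binding protein (chr9:54560351-54560596), a fold of 7.43 with its summit 263 bp from the start. The region near Jrkl (chr9:13242328-13242622) had a fold of 7.18. That near Sepsecs, which makes selenocysteinyl-tRNA (chr5:52669669-52669945), had a fold of 7.13.

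Smpdl3b, whose window is printed above (region chr4:132757023-132757348), had a fold of 6.96 and was the deepest of the 10, with 30 fragments over a background of 3.46. Man2a1, a mannosidase of the Golgi (chr17:64600029-64600502), had a fold of 6.82 and 16 fragments. The nearest WT interval to Cib2 lay 0.72 kb away with a fold of 5.08, and the one nearest to Smpdl3b 2.38 kb away with a fold of 4.28.

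Promoter windows with an SKO-only summit were rich in CpG. The 147 windows had a median of 21 CpG (quartiles 15 and 27) and 60.3% GC, against 20 CpG in 126 windows with a TKO-only summit, 20 in 145 with a WT-only summit, 17 (10 and 25) in 1342 with a summit of all 3 lists, and 7 (3 and 20) over all 32851 windows. More than 20 CpG, the upper quartile of all windows, were found in 53.1% (45.0% to 60.9%) of the SKO-only windows, against 41.5% (38.9% to 44.2%) of those of all 3 lists. The share was 52.8% for SKO and TKO, 47.5% for SKO and WT, 49.2% for TKO-only and 47.6% for WT-only windows. Each of these lay within the SKO-only interval. In windows of protein-coding genes alone the medians were 22 for SKO-only, 20 for TKO-only and 22.5 for WT-only summits. They were 20 for all 3 lists and 13 over all such windows. At like strength the mean was 20.5 CpG in SKO-only windows, against 19.8 in windows of other SKO regions.

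**Figure D4:**
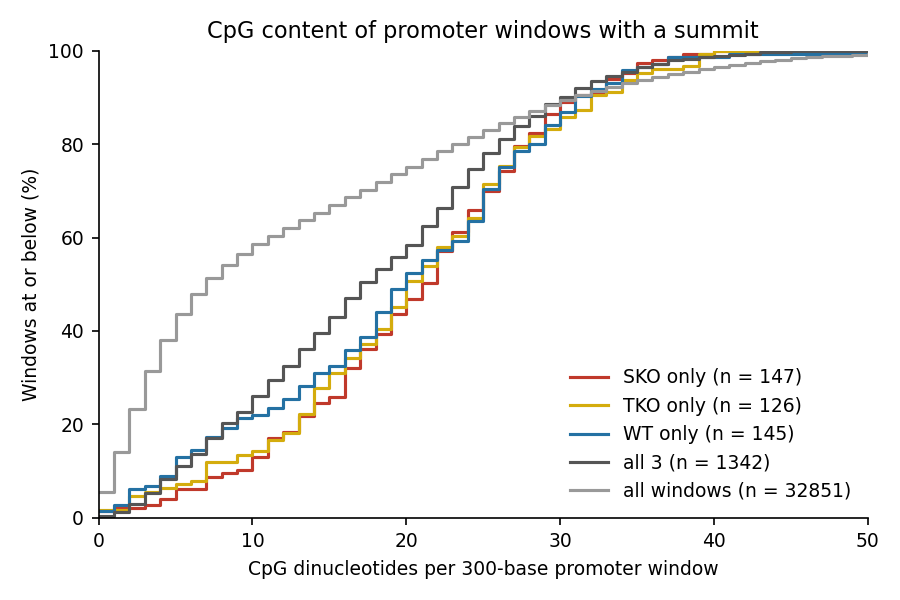
Cumulative share of promoter windows (vertical axis, %) by the number of CpG dinucleotides in the 300-base window (horizontal axis, shown up to 50) for windows with an SKO-only, TKO-only or WT-only summit, a summit of all 3 lists, and all windows. The SKO-only, TKO-only and WT-only curves run close together with medians of 21, 20 and 20, to the right of all windows with a median of 7.

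The CTCF motif was seen less often in these windows than in those with a summit of all 3 lists. Searched on both strands, a stricter form (CCA, any 2 bases, AG, any 2 bases, GGC) was present in 9 of the 147 SKO-only windows (6.12%), against 16.4% of windows of all 3 lists and 2.43% of all windows. The loose form shown with the sequences, which takes in every match of the stricter one, was present in 26 (17.7%, 12.4% to 24.7%), against 16.7% of TKO-only windows, 21.4% of WT-only windows, 38.3% (35.7% to 40.9%) of windows of all 3 lists and 8.61% of all windows. In the few windows of regions that SKO shared with 1 other list, the loose form was present in 22.6% (13.5% to 35.5%) of 53 with TKO and 21.3% (12.9% to 33.1%) of 61 with WT, intervals that overlap that of SKO-only windows. The stricter form was present in 7.55% and 3.28% of these windows. Within 75 bp of the summit the loose form was present in 18 SKO-only windows (12.2%, 7.89% to 18.5%), against 31.0% for all 3 lists. The share was 7.94% for TKO-only, 13.8% for WT-only, 15.1% for SKO and TKO, and 1.64% (1 of 61) for SKO and WT windows. At like strength the shares with the loose form anywhere in the window were 17.7% for SKO-only regions and 21.6% for other SKO regions. The difference lay within the interval of the SKO-only share.

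A CG within the match is where methylation could sit. A loose match with a CG at bases 2 to 3 was present in 6 SKO-only windows (4.08%, 1.88% to 8.62%). The share was 7.14% for TKO-only, 5.52% for WT-only, 11.9% for all 3 lists and 2.22% of all windows. A loose match with a CG at bases 12 to 13 was present in 15 (10.2%, 6.28% to 16.2%), against 8.73%, 6.90%, 24.6% and 3.52% in the same order. These shares are of windows with or without a match, so they move with the share that hold one. Of windows with a match, the 6 and 15 are among 26 for SKO-only, against 160 and 330 among 514 for all 3 lists. Sequence outside promoter windows, where all but 5.63% of SKO-only summits lie, was not used here.

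The median spacing between neighbouring SKO-only regions was 215 kb, against 169 kb for the 3359 TKO-only and 64.0 kb for the 9934 WT-only regions. Within 10 kb of another of their class lay 119 SKO-only regions (4.56%, 3.82% to 5.43%), against 5.33% of TKO-only and 11.8% of WT-only regions. Both measures depend on the number of regions in a class, and random placement was not compared. The nearest region of all 3 lists lay 9.46 kb away at the median (quartiles 3.30 and 26.2 kb), against 10.7 kb for TKO-only and 12.8 kb for WT-only regions.

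Few genes held several. Of the protein-coding genes, 89 held at least 2 SKO-only summits, 6 held 3 and 0 held 4. Pax9, a paired-box transcription factor of tooth, limb and pharyngeal pouch development (chr12:56691693-56712824), held 3, with folds of 4.004, 4.56 and 5.11 over 11, 15 and 16 fragments. These were all of its SKO regions, and the gene held 0 TKO and 0 WT regions. Of the 89 genes, 4 had SKO-only regions and no TKO or WT region, the others being Enkd1, Lrr1 and Trim80 with 2 each, which were chosen after their values were seen.

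The other genes with 3 held further regions. Gpcpd1, a glycerophosphocholine phosphodiesterase, had 3 SKO-only among 4 SKO regions, with 1 TKO and 3 WT regions. The neuronal genes Astn2 and Cntnap2 had 3 among 10 and 3 among 15 in spans of 1024 kb and 2241 kb. Cntnap2, a contactin-associated protein, held the highest fold of these, 8.02, beside 5.91 and 4.14. Tex14, needed for the bridges between germ cells, had 3 among 16, and Cacna1a, a calcium channel subunit, 3 among 26.

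Gene lists were read against the 4.4% of all SKO regions that are SKO only. Regions were counted with a summit in a gene of the list or within 10 kb. Germline genes, which promoter methylation is known to silence in somatic cells, had 9 SKO-only of 71 SKO regions (12.7%, 6.81% to 22.4%). The same list had 2 TKO-only of 76 TKO regions (2.63%, beside 5.4% over all TKO regions) and 14 WT-only of 88 WT regions (15.9%, beside 14% over all WT regions). Of the 9, 3 lay in Tex14, and without that gene the share was 11.1%, a count chosen after seeing the data. With 50 kb on either side it was 6.40%.

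Of the 9 germline regions, 7 lay inside the gene. The region in Mael, of the piRNA pathway (chr1:166214216-166214461), had a fold of 6.76 and 17 fragments, and that in Mov10l1, a piRNA helicase (chr15:89040047-89040267), 6.61 and 21 fragments. That in Tex11, an X-linked gene of meiosis (chrX:100943717-100943937), had 5.49 and 12 fragments. The region near Piwil2, a PIWI protein, lay 1.30 kb outside the gene with a fold of 5.07. The region in Dazl, a germ-cell RNA-binding protein (chr17:50293187-50293389), lay 0.36 kb from its end with 7 fragments, the fewest any member had. None of the 9 overlapped a window of the promoter table, which does not hold every gene.

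Within 10 kb, the remaining lists lay nearer to the 4.4%. Imprinted genes had 7 of 120 (5.83%, 2.85% to 11.6%), among them Grb10, Gnas, Mest and Magel2. The region at Magel2 lay 6.87 kb outside it with a fold of 6.76, and that at Mest overlapped a promoter window with a fold of 2.75. Pluripotency genes had 4 of 69 (5.80%), in Esrrb and near Dppa2, Sox2 and Pou5f1. The region near Pou5f1 (chr17:35516975-35517212, fold 4.39, 18 fragments) had its summit in the promoter window of the neighbouring Cchcr1, with 32 CpG.

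Genes of the NuRD repressor had 3 of 82, with regions in Chd5 and near Chd4. DNA methylation enzymes and readers had 2 of 53, among them a region 3.85 kb from Dnmt3l, Hox genes had 1 of 30, in Hoxa13, and clustered protocadherins had 1 of 84. Chromosome architecture genes had 0 of 70, where 3 counts would be 4.29% and the Wilson interval reaches 5.20%, above the 4.4%. There 7 of 80 TKO regions were TKO only (8.75%, beside 5.4% over all) and 12 of 89 WT regions WT only (13.5%, beside 14%). With 50 kb on either side the SKO-only share was 4.22%. Genes of the 2-cell-like state had 0 of 11, where 3 counts would be 27.3%. With 50 kb on either side 14.6% of regions there were SKO only. Fibroblast markers, which feeders would carry, had 2 of 49 (4.08%), in Col1a1 and near Pdgfra. There 3 of 48 TKO regions were TKO only (6.25%, beside 5.4% over all) and 5 of 53 WT regions WT only (9.43%, beside 14%). The genes of the 6 deleted enzymes had 0 SKO-only regions, among 6 SKO regions at Dnmt1, 6 at Dnmt3a, 2 at Dnmt3b, 6 at Tet1, 2 at Tet2 and 1 at Tet3. With so few regions, 0 says little beside the 4.4%, and no interval was worked out. TKO-only regions numbered 1 each at Dnmt3b, Tet1, Tet2 and Tet3. WT-only regions numbered 2 at Tet1, 2 at Tet2 and 1 at Tet3.

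SKO-only regions were found on each of the autosomes, the X and the Y. On the autosomes the SKO-only share ran between 3.27% (2.45% to 4.28%, exact binomial) on chromosome 19 and 5.45% (4.79% to 6.19%) on chromosome 1. On the X it was 95 of 1619 (5.87%, 4.77% to 7.13%), beside 4.4% over all SKO regions. The TKO-only share there was 5.10%, beside 5.4% over all, and the WT-only share 17.2%, beside 14%. On the Y the SKO-only share was 7 of 36 (19.4%, 8.19% to 36.0%), against 3 of 31 in TKO (9.68%) and 8 of 36 in WT (22.2%). With a −log10 q of at least 5 asked of SKO peaks the Y share was 7.14% and the X share 3.98%, and with it asked of all lists they were 14.3% and 5.46%. The 4.4% is of the full list and is not the value to set beside these shares. Only 1253 and 1779 SKO-only regions were left under the 2 cutoffs, against 2610. The share over all SKO regions was not worked out for them. Unplaced scaffolds had 0 of 74, where 3 counts would be 4.05%, and no interval was worked out for this count.

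**Figure D5:**
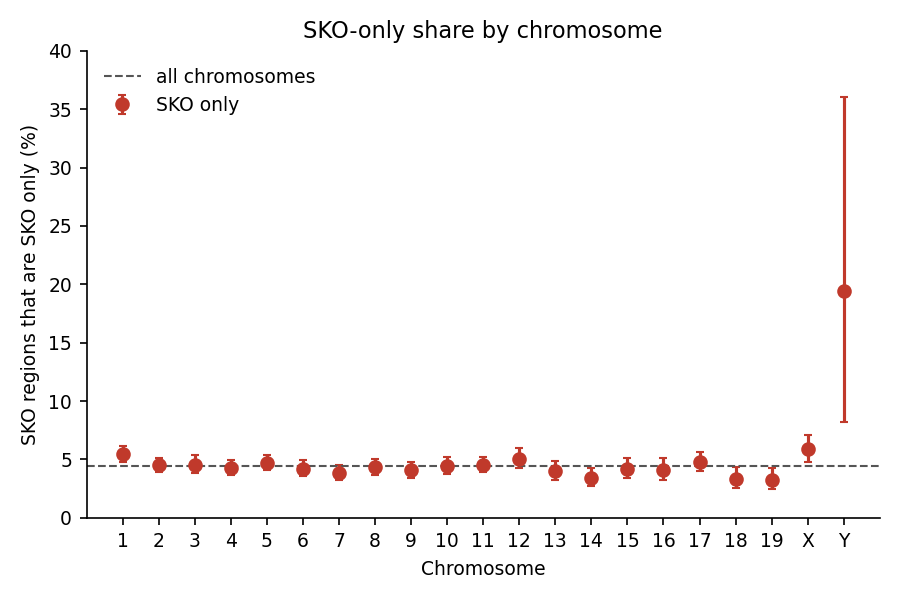
Share of each chromosome's SKO regions that are SKO only (vertical axis, %), with exact 95% binomial intervals that cover counting error only, and the share over all as a dashed line. The autosomes and X lie between 3.27% and 5.87%, and the Y, with 36 regions, at 19.4%, or 7.14% with a −log10 q of at least 5 asked of SKO peaks. The dashed line is of the full list, so it does not apply to that 7.14%.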

How the data were processed

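The authors called 1 peak list per genotype on 3 pooled ChIP replicates against input, per the labels. Tools listed in the submitters' processing notes are MACS2 2.1.2, Bowtie2 2.3.4, deepTools 3.5.0, FastQC 0.11.7, bedtools 2.25.0 and SAMtools 1.9, with the build mm10. The settings used are not stated there. Each deposited peak carries the authors' fold ratio, −log10 p, −log10 q and a score made from −log10 q. The lists begin at a q of 0.05. Pooled replicates leave no spread between samples, so no test was made and shares carry 95% intervals. The members and lists were chosen with earlier results of these data known.

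Pileup was solved from fold and −log10 p (below 280) with a Poisson tail, and every solved value was whole within a relative error of 0.0001. It was solved for 99.6% of SKO, 99.5% of TKO and 99.3% of WT regions. Sequencing totals were not used here. Strength was held alike by direct standardisation over 10 bins of −log10 q. Calculations used Python 3.11.15, numpy 2.4.6, pandas 2.3.3 and scipy 1.17.1, tested on simulated data.

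The RefSeq gene table (49997 genes, 21900 protein-coding) gives boundaries without strand. The RefSeq promoter table is not complete and holds 27025 genes, so "start" means a start in that table. Named regions were the 12 of highest fold, the 10 of highest fold near a gene end, the 6 genes with most, up to 3 genes per list and those at the rule's edge. Regions on chromosome 18 were not named. All list symbols were matched except 1 of the 16 for the 2-cell-like state.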

Additional observations from a re-analysis of the deposited data

How the results depend on the processing

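No paired analysis was possible because replicates were pooled into 1 list per genotype, and depth limits which weak peaks reach a list. Of the values recomputed, 102 stayed within the counting interval or within 1.5 times the count reported, 29 moved beyond and 0 changed direction. The intervals of gene lists are wide: within them lay 14.6% for the 2-cell-like state and 4.22% for architecture genes with 50 kb, 7.14% for Hox gene bodies alone, and 1.35% for NuRD genes at the stricter q. Of 64 regions that the naming rule takes, 45 stayed SKO only under all 5 other rules of membership. The other 19 fell under a −log10 q of 5, and 2 of these also merged with a neighbour within 200 bp. The 100 bp and 50% overlap rules kept all 2610 members, and both q rules kept the same 1253, so the count mostly restates the q cutoff. Among the 45 were the 22 of highest fold or highest fold near a gene end. These were picked for fold, and their lowest −log10 q was 9.84, so the q cutoff could not remove them. With a −log10 q of at least 5 asked of SKO peaks, 1253 regions were left, with 13.2% near a gene end (difference at like strength 4.63 percentage points), a median fold of 5.49, 10.5 kb to a region of all 3 lists, 6.78% over a promoter window, 27.5% with the loose motif, 3.98% on the X and 7.14% on the Y. Asked of all lists, it gave 14.4% near a gene end, fold 5.49, 10.7 kb, 7.03% and a median of 24 CpG. Under both, the Hox, protocadherin and DNA methylation lists had 0%. Requiring no other summit within 100 bp gave a fold of 4.41 and 8.62 kb. The gene-end share was 26.9% at 2.5 kb, 12.5% at 500 bp (difference 5.84) and 23.0% with all gene biotypes. The germline share was 6.40% with 50 kb. Chosen after seeing the data, holding local background alike gave a difference of 11.2 and leaving out the weakest of the 10 bins 4.84. The cause of these moves was not tested, beyond the changed windows and the smaller lists themselves.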
